A study of Mus musculus with 10 samples.

Results

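The retromer group examined here comprised 10 genes, which were Vps35, Vps26a, Vps26b and Vps29 (the retromer core), Snx1, Snx2, Snx5 and Snx6 (the SNX-BAR proteins that work with it), Snx27 (a cargo adaptor) and Washc2 (a subunit of the WASH complex). They were chosen by name, by matching the gene identifiers of the count tables to GENCODE M21 symbols, with earlier results of these data known. All 10 were found among the 55536 mouse gene entries and passed the filter on low counts in every comparison. Cerebellum and cerebral cortex had been dissected from 5 mice aged 1 year, and their RNA gave 10 libraries. Snx14 encodes a sorting nexin of the endoplasmic reticulum, and the Snx14-KO line was made in C57BL/6J embryos by Cas9 and carried a frameshift deletion of 1 base in every cell of the body. It derived from a single mutant allele that was backcrossed to the parent strain. The KO group held 2 mice labelled KO, and the control group held 3 mice, of which controls 1 and 2 were labelled Het and control 3 was labelled WT, so that 2 of the 3 controls carried 1 mutant allele. Every mouse gave both tissues, and the sources used here state no other allele and no treatment.

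Retromer is a coat complex that recovers membrane proteins from endosomes before they reach the lysosome. VPS35 is its scaffold, with VPS29 at one end and VPS26A or VPS26B at the other, and cargo is carried either into SNX-BAR tubules bound for the trans-Golgi network or, through SNX27, back to the cell surface. The WASH complex, which is recruited to retromer through the long tail of its WASHC2 subunit (FAM21), builds branched actin on the endosome. In neurons these proteins sort glutamate receptors and sorting receptors of the sortilin family, and human VPS35 is known for a dominant mutation in Parkinson disease.

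Of the 10 members 1, Washc2, was called in Snx14-KO against control cerebellum, where 1.55% of all genes tested were called. Its transcript was 42.5% lower in KO cerebellum, a log2 fold change of -0.80 with a 95% interval of -0.98 to -0.62. In KO cortex its log2 fold change was 0.18, with an interval of -0.01 to 0.37. It was also the member with the largest regional difference, 4.24-fold higher in control cerebellum than in control cortex. Snx6 was 1.36 times as high in control cerebellum as in control cortex, and 53.3% of all genes differed between the regions at an adjusted p under 0.05. No other member passed an adjusted p of 0.05 in the comparisons made without a block for the mouse.

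The libraries held 16088310 to 22975355 gene counts. Levels between libraries are given as CPM, which are counts scaled to a common library size with TMM factors, and levels between genes as TPM, which also divide by the length of the gene's exons. The targeted gene had lower values in both KO mice than in every control in both tissues. Snx14 ranged from 39.9 to 73.2 CPM in control cerebellum against 15.5 and 17.4 in KO cerebellum (log2 -1.66, edgeR quasi-likelihood adjusted p = 0.0140), and from 34.3 to 50.8 against 14.8 and 16.1 in cortex (log2 -1.36, adjusted p = 0.754). The highest value in each tissue was that of control 3, the WT mouse. The Het controls had 42.8 and 39.9 CPM in cerebellum and 34.3 and 34.9 in cortex. Without control 3 the log2 fold changes were -1.33 in cerebellum and -1.16 in cortex. The cortex call was not reached with edgeR, although the groups did not overlap, and DESeq2 gave it an adjusted p of 2.11e-06. The tissue labels were matched by markers, with 3236 to 3833 summed CPM of 5 granule cell genes in cerebellum and 13.5 to 30.3 in cortex. Cortex control 2 stood apart, with 3724 summed CPM of 8 striatal neuron genes against 1533 and 1705 in the other cortex controls and 542 and 966 in KO cortex. Both KO cortex values were also below every cortex control.

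Positions are those of mouse build GRCm38. Vps35 is at chr8:85260392-85299802, Vps26a at chr10:62455235-62486805, Vps26b at chr9:27007771-27030065, Snx1 at chr9:66088133-66126587, Snx5 at chr2:144250123-144270906, Snx6 at chr12:54746349-54795703 and Snx27 at chr3:94497544-94582716, all on the minus strand. Vps29 at chr5:122354369-122364984 and Washc2 at chr6:116208038-116262686 are on the plus strand, as is Snx2. Read pairs were counted without strand and for every gene that they touched, so overlapping genes share reads. No exonic base is shared with another gene in 6 members, whereas 7.02% of the exonic bases of Washc2 overlap Gm44103, an opposite-strand gene model without an assigned type at chr6:116260434-116264095. The overlap is 5.53% for Vps29 (with Fam216a), 4.93% for Snx5 (with Mgme1) and 1.92% for Vps35 (with Orc6). Paralogs were checked for stretches of 100 bases in common with transcripts of other genes, and 9 members had 0%, while 4.37% of such stretches of Snx2 also occur in Gm12543 or Snx30.

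Upstream sequences are shown for the members with a regional difference, Washc2 and Snx6, and for Vps26b, which has the same GC content as Washc2 in this window (57.2%) and no regional call. They are the 250 bases before the start that the RefSeq promoter table of build GRCm38.p6 gives, in which 7 members were matched. RefSeq and GENCODE starts differ, so that 41 bases of the Snx6 window lie inside the gene as placed above, while the Washc2 and Vps26b windows end 5 and 29 bases before their genes. The windows lie at chr6:116207783-116208032 on the plus strand for Washc2, at chr12:54795663-54795912 on the minus strand for Snx6 and at chr9:27030095-27030344 on the minus strand for Vps26b. Capitals mark the letters CACGTG (an E-box) and AGGTCA (a nuclear receptor half-site), searched on both strands.
Washc2: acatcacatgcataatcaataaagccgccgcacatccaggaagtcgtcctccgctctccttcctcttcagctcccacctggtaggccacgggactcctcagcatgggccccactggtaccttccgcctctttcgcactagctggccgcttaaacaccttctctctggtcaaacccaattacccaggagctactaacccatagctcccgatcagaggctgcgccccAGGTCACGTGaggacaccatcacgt
Snx6: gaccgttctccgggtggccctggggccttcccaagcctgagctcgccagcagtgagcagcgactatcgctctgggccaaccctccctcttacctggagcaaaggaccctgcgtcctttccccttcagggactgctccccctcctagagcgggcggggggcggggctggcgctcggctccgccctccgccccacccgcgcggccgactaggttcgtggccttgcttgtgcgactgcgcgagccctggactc
Vps26b: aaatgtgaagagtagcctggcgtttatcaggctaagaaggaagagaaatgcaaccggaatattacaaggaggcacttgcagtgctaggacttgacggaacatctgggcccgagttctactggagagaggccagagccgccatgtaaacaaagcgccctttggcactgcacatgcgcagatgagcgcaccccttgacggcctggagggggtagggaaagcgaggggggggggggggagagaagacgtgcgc
In the Washc2 window the E-box and the half-site overlap in a single run of capitals. CACGTG occurs in 6.02% and AGGTCA in 14.0% of the 32851 mouse promoter windows of this length. Neither occurs in the windows of Snx6, Vps26b, Vps29 or Snx1, while CACGTG also occurs in those of Snx5 and Vps26a. All 250 bases of the Snx5 and Snx1 windows lie inside the genes as placed above, as do 207 bases of a further Vps26a window. These matches describe letters only and were not measured as binding.

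Washc2 encodes the WASH subunit that links the complex to retromer. In control cerebellum it had 467.4, 411.7 and 432.9 CPM in controls 1, 2 and 3, and in KO cerebellum 254.3 and 251.6 CPM. Both KO libraries were far below the lowest control, and the WT control lay between the Het controls. In cortex it had 100.3, 103.2 and 104.9 CPM in the controls and 116.4 and 114.1 in the KO mice. The cortex groups did not overlap either, with the KO mice on the higher side, as in 10.5% of all genes tested there. Marker sums of astrocytes and cortical excitatory neurons were also higher in KO cortex without overlap. They were 1114 and 1221 CPM against 776 to 1089 for 5 astrocyte genes. For 6 cortical excitatory neuron genes they were 458 and 498 against 342 to 448. The sum of 8 striatal neuron genes went the other way without overlap, at 966 and 542 CPM against 1533 to 3724. Their median log2 fold change in KO cortex was -1.72, and 0 passed the adjusted p. The part of these cell types in the cortical Washc2 values was not tested. The cerebellar difference was log2 -0.80 (SE 0.0794, edgeR quasi-likelihood test, Benjamini-Hochberg adjusted p = 0.0022), and leaving out each library in turn gave log2 values from -0.84 to -0.75 with adjusted p from 0.00068 to 0.0234. The cortical difference was log2 0.18 (SE 0.0807, adjusted p = 0.861).

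**Figure D1:**
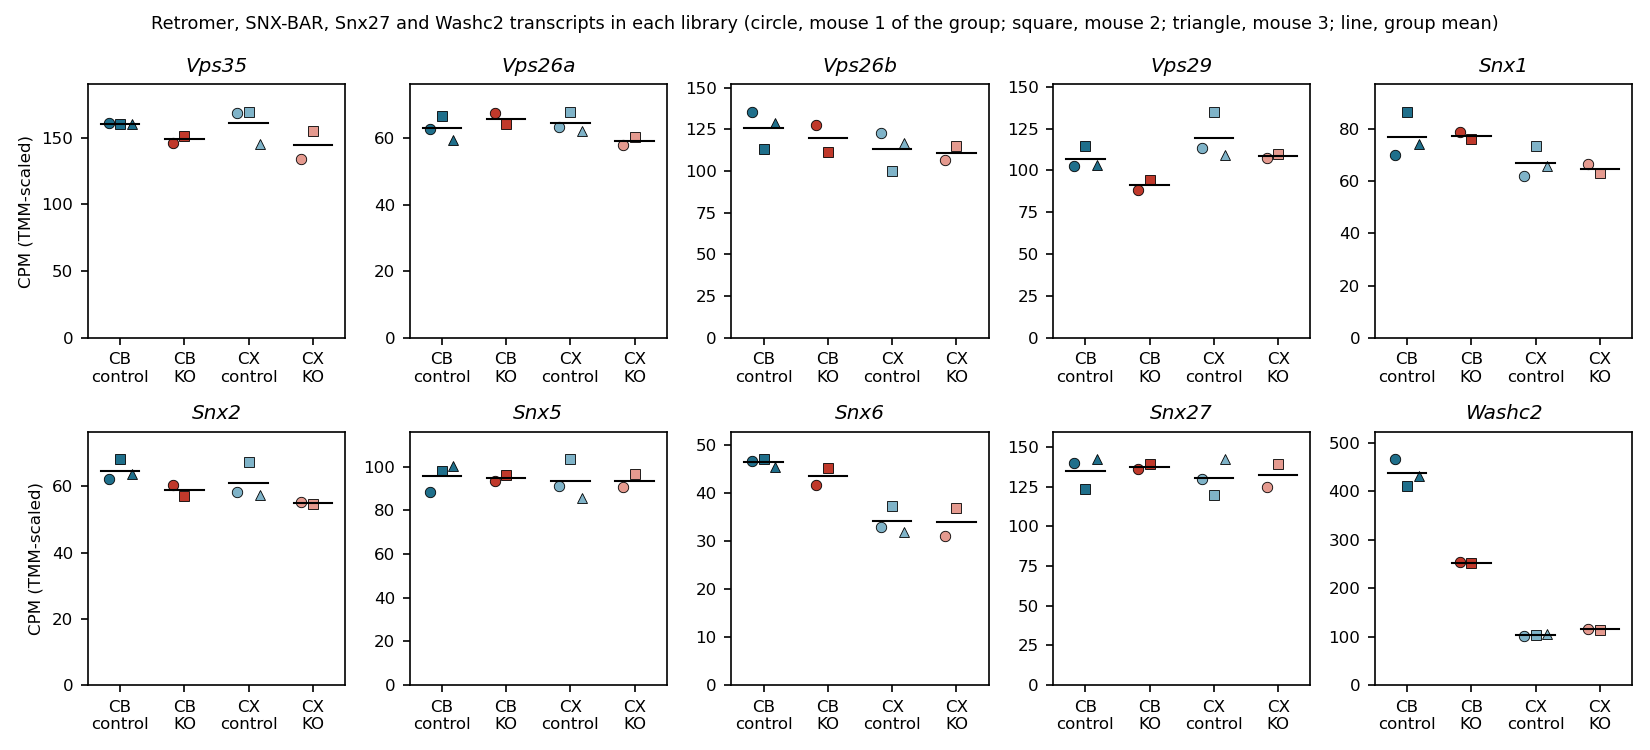
CPM (TMM-scaled, linear axis from 0) of the 10 members in every library; points are mice, with 3 control and 2 KO mice in cerebellum (CB) and cortex (CX), and lines are group means. Washc2 sits at 411.7 to 467.4 CPM in control cerebellum, at 251.6 and 254.3 in KO cerebellum and at 100.3 to 116.4 in cortex, while the other members lie at similar heights in all 4 groups apart from Snx6, which is lower in cortex.

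Washc2 was the only one of the 10 members called in KO cerebellum, where a call required both an adjusted p under 0.05 and a log2 fold change beyond 0.5 in either direction. Over all 19447 genes tested, 1.55% were called and 1.04% were called lower. In cortex 0 members were called by edgeR or by DESeq2, and 0% of 19202 genes were called by edgeR, of which 5.93% had an unadjusted p under 0.05, with 0 members among them. Without cortex control 2, the library that stands apart, 98 genes were called in KO cortex and 2126 had an unadjusted p under 0.05, with 0 members called. The difference between the tissues was tested directly in a fit of all 10 libraries. That fit had no block for the mouse, although each mouse gave both tissues, and the fit with the block is given further below. The KO effect on Washc2 was lower in cerebellum than in cortex by log2 -0.95 (SE 0.107, 95% interval -1.19 to -0.72, edgeR quasi-likelihood adjusted p = 0.0058), and 0.102% of 20614 genes passed that test. The call was lost without cerebellum KO 2 (adjusted p = 0.0655), without cortex KO 1 (adjusted p = 0.0721) and without cortex KO 2 (adjusted p = 0.0701), with log2 values of -0.95, -0.94 and -0.97.

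Comparing the tissues of each mouse removes differences between mice. Washc2 was 4.66, 3.99 and 4.13 times as high in cerebellum as in cortex in controls 1, 2 and 3, and 2.18 and 2.21 times as high in the KO mice. The KO mice therefore kept a higher level in cerebellum, at a smaller ratio than any control. In the controls the regional difference was log2 2.08 (SE 0.0826, 95% interval 1.90 to 2.27) in the fit without a block for the mouse, and also 2.08 with it.

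Purkinje cell markers, like Washc2, were lower in KO cerebellum. The summed CPM of 8 Purkinje cell markers was 8028 to 9841 in control cerebellum, 4041 and 4141 in KO cerebellum and 1005 to 1249 in cortex, with no marker at 0 in any group. In cortex the sums overlapped, at 1005 and 1037 in the KO mice against 1034 to 1249 in the controls. Washc2 was there higher in both KO mice than in every control. All 8 fell in KO cerebellum, with a median log2 fold change of -1.19, from -1.35 for Car8, a carbonic anhydrase-related protein that binds the IP3 receptor, to -0.58 for Slc1a6, a glutamate transporter. The value of Washc2 lay within that range. Calb1, Pcp2, Car8 and Rgs8 of this list had been named by the study as lower in KO cerebellum at 1 year, so their fall was known beforehand. Gfap, Trem2 and Cd68, in the astrocyte and microglia lists used next, had likewise been named as higher. Astrocyte markers were higher, with 2526 and 2680 summed CPM of 5 genes in KO cerebellum against 2184 to 2322 in the controls and 4 of 5 genes passing the adjusted p. Summed microglia markers (7 genes, 114 and 123 against 87.0 to 101 CPM) and endothelial markers (4 genes, 91.9 and 93.0 against 72.3 to 85.7 CPM) also did not overlap, with 0 genes of either list passing. Granule cell markers overlapped between the groups (3245 and 3813 against 3236 to 3833), and 0 of 5 passed. The part of these cell types in the Washc2 result was not tested, and in bulk tissue fewer cells of a type and less RNA per cell cannot be told apart.

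Reads of Gm44103 cannot be told apart from Washc2 reads where the genes overlap. Gm44103 had 75.8 to 84.4 CPM in control cerebellum, 46.5 and 49.3 in KO cerebellum, 15.9 to 27.1 in control cortex and 25.7 and 26.4 in KO cortex, so that its groups did not overlap in cerebellum and overlapped in cortex. Its counts came to between 15.9% and 26.2% of the Washc2 counts of a library. With all of them subtracted, an alternative chosen after seeing the data, the Washc2 values were log2 -0.81 in KO cerebellum (adjusted p = 0.0021), 0.13 in KO cortex, 2.11 between regions and -0.92 for the difference of the KO effects (adjusted p = 0.0200).

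**Figure D2:**
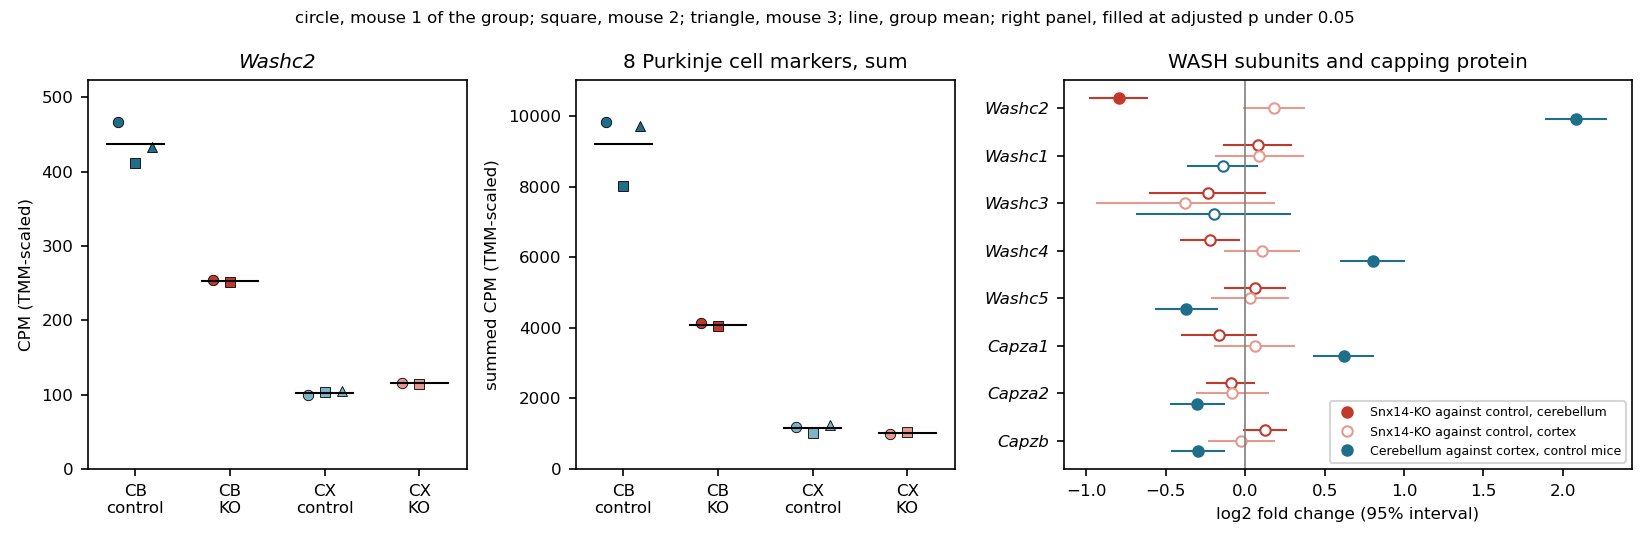
Left and middle, TMM-scaled CPM of Washc2 and summed CPM of 8 Purkinje cell markers in each library, with points for mice and lines for group means. Right, log2 fold changes with 95% intervals of the WASH and capping protein genes in 3 comparisons, where Washc2 alone is filled (adjusted p under 0.05) in KO cerebellum, at -0.80, and Washc4 and Capza1 are filled on the cerebellar side between regions, at 0.80 and 0.62.

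The other WASH genes were read from a list of 7 (Washc1, Washc3, Washc4, Washc5 and the capping protein genes Capza1, Capza2 and Capzb). None passed in either KO comparison, and the median log2 fold change in KO cerebellum was -0.09. Washc1, the subunit that activates the Arp2/3 complex, had 24.8, 26.6 and 25.4 CPM in the cerebellum of the controls and 28.6 and 25.9 in that of the KO mice, which overlap. Washc4, a scaffold subunit also known as SWIP, had 72.6, 73.0 and 80.5 CPM against 61.5 and 68.3, which did not overlap, with a log2 fold change of -0.22 (95% interval -0.40 to -0.04, adjusted p = 0.263). Between regions Washc4 was higher in cerebellum, by log2 0.80 (SE 0.0875), as was Capza1, by log2 0.62 (SE 0.0820). In all, 2 of the 7 were higher and 3 lower at the adjusted p, a comparison that 53.3% of all genes passed. Whether the change of Washc2 differed from those of its partner subunits was not tested.

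Vps35 encodes the scaffold of the core. It had 160.6, 160.1 and 159.9 CPM in control cerebellum and 146.2 and 151.2 in KO cerebellum. Both KO libraries were below all 3 controls, which lay within 1 CPM of each other, and the log2 fold change was -0.11 (SE 0.0571, adjusted p = 0.456). In cortex Vps35 had 168.8, 169.4 and 145.5 CPM in the controls and 134.3 and 154.8 in the KO mice, which overlap, with log2 -0.15 (SE 0.110, adjusted p = 0.893).

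Vps29, a metallophosphoesterase-fold subunit that also binds regulators of endosomal RAB proteins, had 102.5, 114.6 and 103.5 CPM in control cerebellum and 88.4 and 94.5 in KO cerebellum. The groups did not overlap, and the log2 fold change of -0.23 had a 95% interval of -0.40 to -0.06 (SE 0.0729). It was among the 13.4% of all genes with an unadjusted p under 0.05 and did not pass after adjustment over all genes (edgeR quasi-likelihood adjusted p = 0.203). In cortex it had 113.2, 135.2 and 109.3 CPM against 107.2 and 110.0, with log2 -0.12, and the highest value was that of control 2, the library with the most striatal marker RNA, whose part in this value was not tested.

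The VPS26 proteins are arrestin-like subunits that occupy the same site on VPS35. Vps26a had 62.8, 66.6 and 59.4 CPM in control cerebellum and 67.4 and 64.2 in KO cerebellum, which overlap, and 63.4, 67.9 and 62.2 CPM against 57.9 and 60.4 in cortex, where the KO libraries were lower. Its log2 fold changes were 0.06 in cerebellum (SE 0.0721, adjusted p = 0.828) and -0.11 in cortex (SE 0.0878, adjusted p = 0.894). Vps26b, the form that is prominent in brain, had 135.5, 113.3 and 128.9 CPM against 127.4 and 111.6 in cerebellum, and 122.9, 100.2 and 116.5 against 106.5 and 114.9 in cortex. Its groups overlapped in both tissues, with control 2 the lowest control in each.

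SNX1 and SNX2 are SNX-BAR proteins that pair with SNX5 or SNX6 to bend the endosomal membrane into tubules. Snx2 had 62.1, 68.3 and 63.7 CPM in control cerebellum against 60.5 and 57.1 in the KO mice, and 58.4, 67.3 and 57.2 against 55.3 and 54.5 in cortex. The KO libraries were the lowest in both tissues, with log2 fold changes of -0.15 (SE 0.0714, adjusted p = 0.441) and -0.14 (SE 0.103, adjusted p = 0.893). Snx1 had 70.1, 86.6 and 74.1 CPM against 78.6 and 76.0 in cerebellum, and 61.9, 73.3 and 65.6 against 66.5 and 63.0 in cortex, where the groups overlapped.

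Snx5 and Snx6 encode the SNX-BAR members that recognise the tail of the mannose 6-phosphate receptor. Snx6 had 46.5, 47.0 and 45.4 CPM in control cerebellum and 41.6 and 45.2 in KO cerebellum, with log2 -0.10 (SE 0.0764, adjusted p = 0.667). The upper KO value lay just under the lowest control. In cortex it had 32.9, 37.3 and 31.8 CPM in the controls and 30.9 and 36.9 in the KO mice, which overlap.

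Snx5 had 88.5, 98.1 and 100.2 CPM in control cerebellum against 93.3 and 96.1, and 91.1, 103.5 and 85.5 against 90.4 and 96.4 in cortex. Snx27, whose PDZ domain binds the tails of receptors that return to the surface, had 139.6, 123.3 and 142.5 CPM against 136.0 and 139.0, and 129.9, 119.8 and 142.3 against 124.7 and 139.5. For both genes the KO libraries lay within the range of the controls in each tissue.

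Across the members, 8 of 10 had a log2 fold change below 0 in KO cerebellum, against 49.8% of all genes tested. Of these 8, Vps26b, Snx1 and Snx5 lay so near 0 that their sign changed in some alternative. The members' median was -0.09, against 0.00090 over all genes. In 5 members the KO libraries were all below the controls and in 0 they were all above, where 14.6% of all genes were below and 15.4% above in this way. Without Washc2, the other 9 members ranged from -0.23 to 0.06, and their 95% intervals lay between -0.40 and 0.22. In cortex 6 of 10 were below 0, where 49.8% of all genes were, the groups did not overlap with KO lower in 2 members and with KO higher in 1, and the shares over all genes were 14.2% and 10.5%. The other 9 members ranged from -0.15 to 0.03 in cortex, with intervals between -0.40 and 0.29. These intervals leave out a change as large as that of Washc2 in cerebellum for each of the 9 genes, and they leave small changes undecided. For the difference of the KO effects between tissues the 9 genes ranged from -0.09 to 0.19, the value of Vps26a (adjusted p = 0.704).

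**Figure D3:**
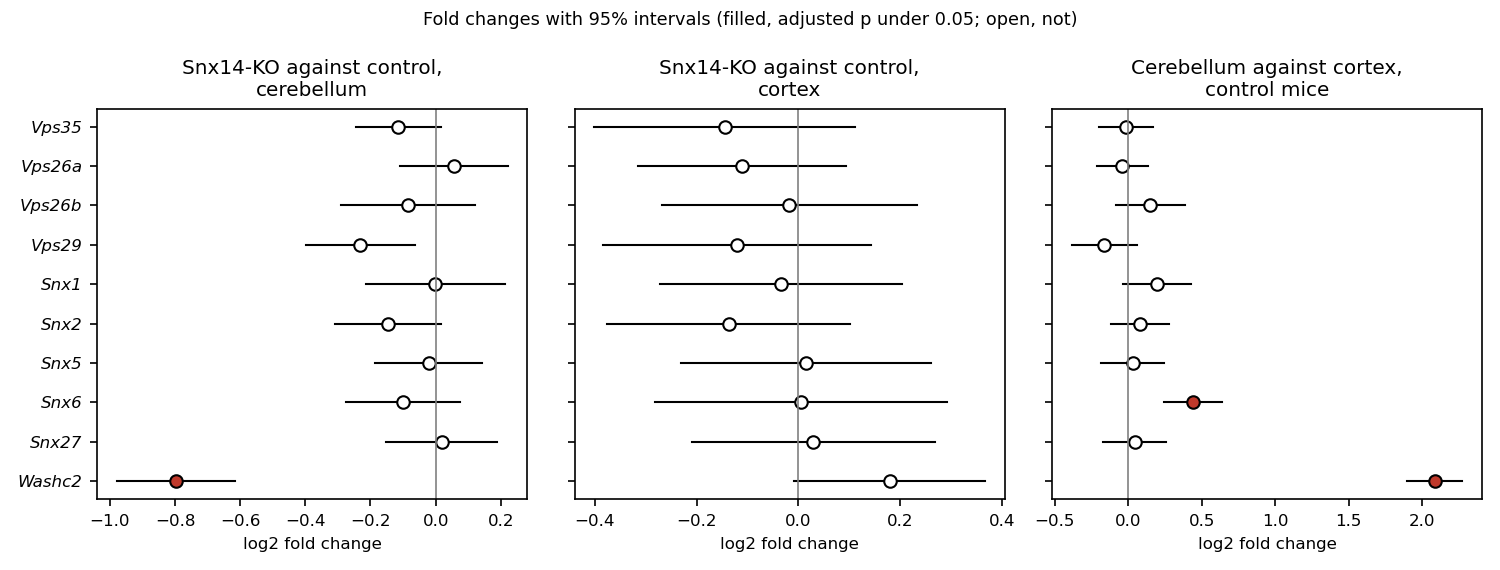
Log2 fold changes (points) with 95% intervals (lines) of the 10 members in KO against control cerebellum, KO against control cortex and cerebellum against cortex of control mice, from edgeR, on axes of different range. Filled points have an adjusted p under 0.05: Washc2 at -0.80 on the left, none in the middle, and Snx6 at 0.44 and Washc2 at 2.08 on the right.

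Between control cerebellum and control cortex, 2 of 10 members passed the adjusted p and 1 also passed the fold threshold, all on the cerebellar side. Among all 19416 genes, 53.3% passed the adjusted p and 40.5% passed both, with 26.5% and 19.1% on the cerebellar side and 26.8% and 21.5% on the cortical side. The groups did not overlap in 2 members, against 61.8% of all genes. Snx6 was 1.36 times as high in cerebellum (log2 0.44, SE 0.0860, 95% interval 0.24 to 0.64, adjusted p = 0.00251). Within each mouse the ratio was 1.41, 1.26 and 1.43 in the controls and 1.35 and 1.23 in the KO mice, higher in cerebellum in 5 of 5 mice. The other 8 members ranged from -0.16 to 0.20 with intervals between -0.38 and 0.43. Snx1 had log2 0.20 (adjusted p = 0.137), and with the mouse as a replicate block, since each control gave both tissues, its adjusted p was 0.0304 at log2 0.20. Vps26b had log2 0.15 (adjusted p = 0.250) and Vps29 log2 -0.16 (adjusted p = 0.193).

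Ordered per length, Washc2 led the members in control cerebellum with 188.8 ± 17.7 TPM (SD, n = 3), and its range did not touch that of Vps26b at 80.5 ± 9.64 TPM. Below it the ranges of Vps26b, Snx2, Snx5 and Vps26a overlapped from each to the next, as did those of Snx27, Vps35, Snx1 and Vps29, and Snx6 was lowest at 50.3 ± 1.40 TPM. In KO cerebellum Washc2 still led, at 109.9 ± 0.275 TPM (SD, n = 2). Control cortex had another order, with Vps26a, Snx2, Vps26b and Snx5 between 62.1 and 62.8 TPM on average and overlapping, Washc2 at rank 9 with 38.0 ± 2.53 TPM, and Snx6 lowest at 31.6 ± 0.668 TPM. Washc2 and Snx6 were separated from their neighbours in that order by their ranges. In KO cortex Washc2 stood at rank 8 with 45.0 ± 1.91 TPM, overlapping Snx1. Exon length was taken over all transcripts of a gene, which understates genes with long minor transcripts.

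Paralogs that fill the same place in the complex were compared as shares of their summed TPM. Snx5 made up 57.7% to 61.7% of Snx5 plus Snx6 across cerebellum and 65.2% to 67.7% across cortex, with no overlap. The share was lower in cerebellum in 5 of 5 mice, with a cerebellum-minus-cortex difference of -6.16 ± 1.70 percentage points (SD, n = 5; exact two-sided permutation p = 0.062, the smallest that 5 mice allow). Snx1 made up 42.5% ± 1.47 of Snx1 plus Snx2 in control cerebellum and 40.6% ± 0.958 in control cortex (SD, n = 3), and was higher in cerebellum in 5 of 5 mice by 2.20 ± 1.39 points (exact permutation p = 0.062). Vps26b made up 52.8% ± 3.47 of the VPS26 forms in control cerebellum and 49.5% ± 3.73 in control cortex. Its cerebellum-minus-cortex difference was 3.29 ± 0.551 points in the controls (SD, n = 3, 2.66 to 3.65) and 0.639 and -2.23 points in the KO mice. Over all 5 mice it was 1.66 ± 2.49 points (exact permutation p = 0.188), and 2.63 without KO 2, so that this mean joins mice of unlike values. Adjusted over these 3 pairs by Benjamini-Hochberg, the smallest p was 0.0938.

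**Figure D4:**
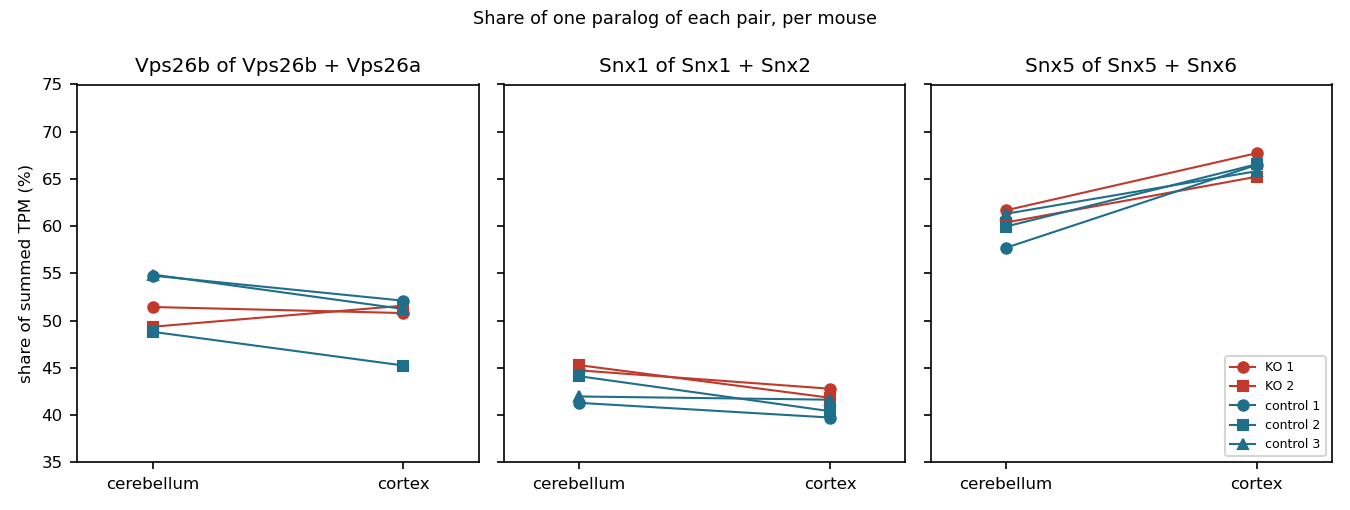
Share (%) of summed TPM taken by Vps26b, Snx1 and Snx5 within their paralog pairs, with a line for each of the 5 mice from cerebellum to cortex and an axis that runs from 35% to 75%. The Snx5 share rises from 57.7% to 61.7% in cerebellum to 65.2% to 67.7% in cortex in every mouse, and the Snx1 share of the KO mice lies above that of the controls in both tissues.

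Between KO and control mice, the Snx1 share was higher in both KO mice than in every control in cerebellum (44.7% and 45.3% against 41.3% to 44.1%) and in cortex (41.8% and 42.8% against 39.8% to 41.6%), while the other shares overlapped. A test of 3 against 2 mice cannot reach a p below 0.1. In cerebellum the KO-minus-control differences were -2.42 points for Vps26b (exact permutation p = 0.4), 2.55 for Snx1 (p = 0.2, exact) and 1.37 for Snx5 (p = 0.4, exact). In cortex they were 1.66, 1.72 and 0.19 points, with exact permutation p of 0.9, 0.2 and 1, and adjusted over these 6 comparisons the smallest exact p was 0.6.

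A further 7 lists, of 63 genes that act with retromer or beside it, were all measured. In KO cerebellum 1 of 63 passed the adjusted p and 0 passed the fold threshold, against 2.14% and 1.55% of all genes. That gene, named after its value was seen, was Ankrd50, an ankyrin-repeat protein that works with SNX27 and WASH, at log2 0.32 (adjusted p = 0.0485). Its call was lost without control 1, control 3, KO 1 or KO 2, with adjusted p of 0.202, 0.196, 0.170 and 0.245. In KO cortex and for the difference of the KO effects, 0 of 63 passed. Their median log2 fold changes were -0.03 in KO cerebellum and -0.02 in KO cortex.

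Between regions 19 of the 63 were higher in cerebellum and 17 lower at the adjusted p, of which 13 and 8 passed the fold threshold. The shares over all genes were 26.5% and 26.8%, and 19.1% and 21.5% with the fold threshold, so the counts are near those of genes at large and say nothing particular of the lists. Of the 7 other SNX-BAR genes 5 were higher and 1 lower, with Snx7 at log2 -2.50 (SE 0.174), Snx30 at 0.69 (SE 0.0889) and Snx8 at 0.51 (SE 0.109). Of 13 cargo genes 5 were higher and 4 lower, and the median log2 fold change of the list was 0.14. Those named by smallest adjusted p were Sort1 (log2 -1.27, SE 0.153), Sorcs1 (-1.82, SE 0.0879) and Sorcs2 (-1.98, SE 0.186). These sortilin family members were lower in cerebellum, and the values of Sorl1 and Sorcs3, family members also on the list, are not given here. Of 10 regulators 3 were higher and 4 lower, with Ehd1, which cuts endosomal tubules, at log2 1.39 (SE 0.112), Ankrd27, which binds VPS29, at -0.71 (SE 0.0953) and Vps9d1 at -0.65 (SE 0.0763). Of 4 further retromer-associated sorting nexins 2 were lower, of 14 Commander and retriever genes 2 were higher and 2 lower, and of 8 tethers 2 were higher and 1 lower, and none of these passed the fold threshold.

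The genes whose profile was most like that of Vps35 were sought over the 10 libraries, after centring log2 CPM on the mean of each tissue, among 11539 genes with a mean of at least 10 CPM. They were Col9a2, a collagen chain (r = 0.956), Abi1, a subunit of the actin-regulating WAVE complex (r = 0.947), Zfp711, a zinc finger protein (r = 0.943), Insig2, an endoplasmic reticulum regulator of sterol synthesis (r = 0.941), and Ppp2cb, a catalytic subunit of protein phosphatase 2A (r = 0.940). These values are descriptions over 5 mice, and the libraries of a mouse share that mouse.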

How the data were processed

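Bulk RNA was sequenced from the cerebellum and cortex of 5 mice. The authors trimmed the paired-end reads of strand-specific libraries, mapped them to GRCm38 with STAR and counted them with featureCounts (Subread 2.0.1). The deposited values are raw counts per gene without normalization, made without strand and with a pair counted for each gene that it overlapped. The 26345 entries without a mouse gene identifier (0.160% to 0.926% of a library's counts) were left out, and 55536 were used. Names and exons came from GENCODE M21, with coordinates identical for 55450 entries.

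Groups were taken from the labels. Genes were kept by filterByExpr (count minimum 10), scaled by TMM and tested over all genes by edgeR's quasi-likelihood method (edgeR 4.0.16, R 4.3.3) with Benjamini-Hochberg adjustment. Calls used the study's thresholds (adjusted p under 0.05, log2 fold change beyond 0.5 either way). The KO effects of the tissues were compared as an interaction at an adjusted p under 0.05. CPM were TMM-scaled over all 10 libraries. TPM were computed here from the counts and the length of each gene's exons and are used only between genes of a library. Depth was 16088310 to 22975355 gene counts, and the biological coefficient of variation common to all genes was 0.121 in cerebellum and 0.141 in cortex. The spread of single members was not set against their counting error. Shares were tested by exact permutation. The scripts were tested on simulated data.

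Alternatives were DESeq2 1.42.0, RLE size factors, no filter, leaving out each library, a replicate block and, chosen after seeing the data, Washc2 counts less those of Gm44103. The tissues are paired because each mouse gave both, according to the animal numbers in the labels, and the deviations of the tissues of controls 1, 2 and 3 correlated at 0.470, 0.633 and 0.395. Named genes were all members, Snx14, at most 3 called genes per list and comparison by adjusted p, and the 5 genes most like Vps35. The members and lists were chosen with earlier results of these data known. Each replicate is a separate mouse.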

Additional observations from a re-analysis of the deposited data

Results flagged for a closer look

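The KO effect on Washc2 differed between the tissues by log2 -0.954 in the test of the difference itself (edgeR quasi-likelihood adjusted p = 0.0058). The call was lost without cerebellum KO 2, cortex KO 1 or cortex KO 2 (adjusted p = 0.0655, 0.0721 and 0.0701). Both KO mice had less than every control in cerebellum, as in 14.6% of all genes tested. They had more than every control in cortex, as in 10.5% of all genes tested. The cortical difference itself did not pass (log2 0.18, edgeR quasi-likelihood adjusted p = 0.861).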

How the results depend on the processing

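Washc2 was the only member called in KO cerebellum under each of the 9 alternatives run over all members, and 0 members were called in KO cortex under each of 9. The Washc2 value in KO cerebellum ranged from -0.84 to -0.75 over its 10 alternatives. Leaving out single libraries gave 0 to 1 members called for the difference of the KO effects, with Washc2 between -0.996 and -0.904. Members not given single log2 values above lie near 0, and in some alternative 4 of them changed sign in KO cerebellum, 5 in KO cortex, 4 between regions and 7 for the difference of the KO effects, with 0 called among them. The 63 other pathway genes had 0 called in KO cerebellum, with 1 under the replicate block and 0 to 1 when single libraries were left out, and 1 in KO cortex without the filter on low counts, which in each case was Slc2a1. For the difference of the KO effects 0 to 1 passed when single libraries were left out, the 1 being Ankrd50 without cortex control 2. Ankrd50 in KO cerebellum had an adjusted p of 0.274 under the block and lost its call without control 1, control 3, KO 1 or KO 2. Snx14 in KO cerebellum ranged from -1.82 to -1.33 without single libraries, and its adjusted p was 0.0989 without KO 1 and 0.0638 without KO 2. In KO cortex it was -1.36 with DESeq2 and without the filter, both past the threshold, and ranged from -1.46 to -1.16 without single libraries, passing without control 2 at -1.45 (adjusted p = 0.00207). The KO difference of the Snx5 share in cortex ranged from -1.06 to 1.44 points without single libraries. That of the Vps26b share ranged from -0.478 to 2.95 in cortex and from -4.43 to -1.38 in cerebellum, and that of the Snx5 share in cerebellum from 0.399 to 2.20. The cause of these shifts was not tested.

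KO and control mice share numbers 1 and 2 but are different animals, and the deviations of same-numbered mice correlated at 0.363 and 0.339 in cerebellum and 0.302 and 0.366 in cortex over 2 pairs. Deviations were taken from the group mean, so those of KO 1 are those of KO 2 with the sign reversed. The correlations of a tissue are therefore not independent. The labels give no shared litter or day, and 2 pairs are too few to treat the mice as paired. With that number as a replicate block 181 of all genes were called in KO cerebellum in place of 302, and 3 in place of 0 in KO cortex, while the members' calls stayed at 1 and 0. With the mouse as a replicate block between tissues, 128 in place of 21 genes passed for the difference of the KO effects, counted with the fold threshold as well. Washc2 had log2 -0.95 for that difference (edgeR quasi-likelihood adjusted p = 0.0056). Between regions Snx1 was the single member that passed the adjusted p only under this block. At log2 0.20 it fell short of the fold threshold, so the members called there stayed at 1. Without the filter on low counts 842, 380 and 586 genes were called in KO cerebellum, in KO cortex and for the difference, and DESeq2 called 49 and 204 in the latter comparisons. Leaving out single libraries gave 133 to 400 calls in KO cerebellum (133, 179 and 180 without control 1, control 3 and KO 1), 0 to 98 in KO cortex (98 without control 2 and 7 without KO 2) and 3 to 111 for the difference. The last was 111 without cortex control 2, 36 without cerebellum KO 1, and 10, 11, 6, 11, 8 and 3 without cerebellum control 1, control 3 and KO 2 and cortex control 3, KO 1 and KO 2.

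With 2 KO mice against 3 controls, small changes of single members were not resolved. Het and WT controls were not separated, because there was 1 WT mouse. The Washc2 interaction calls were lost in fits that left out a library, and the cause of the losses was not tested. Reads shared by overlapping genes cannot be told apart, and cell numbers were not measured.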
